A study of Mus with 17 samples.

Results

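Liver transcripts of 8 genes were described across both diets of the series: 6 genes of hormones that the liver secretes, or hepatokines (Fetub, Ahsg, Angptl4, Angptl6, Inhbe and Inhbc), and 2 genes of the membrane complex that receives endocrine fibroblast growth factors (Klb and Fgfr4). They were listed by name and make up 8 of the 24937 genes with values. RNA of whole liver came from 17 male C57BL6/JBomTac mice of the same age, 1 library per mouse. The western diet group of 8 mice ate a western diet and drank water with fructose at 42 g/L for 52 weeks, which the labels give as the way to an advanced fatty liver with inflammation. The chow group of 9 mice ate standard chow for 52 weeks and drank plain water. The labels name no allele or transgene, and both groups went without food over the last night.

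Hepatokines leave the hepatocyte by secretion and act on fat, muscle, vessels or other organs, so that the state of the liver reaches distant metabolism. The FGF complex works the other way round: a receptor kinase binds the hormone only together with the co-receptor beta-Klotho, encoded by Klb. With FGFR4, the main receptor of hepatocytes, beta-Klotho receives the gut hormone FGF15 and restrains bile acid synthesis, while FGF21, made by the liver itself, uses beta-Klotho with other FGF receptors, chiefly in fat and brain.

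Of the 8 members 4 fell on western diet, namely Inhbc, Klb, Angptl4 and Fgfr4, and none rose, where a call means that the quasi-likelihood test of edgeR gave p under 0.05 after Benjamini-Hochberg adjustment over 13204 genes. Over all genes tested 48.4% passed, 24.8% as higher and 23.6% as lower, so that a call in itself is common in these data. Rises made up 51.2% of all calls, and 73.5% when libraries were scaled by size without TMM factors. Groups that do not overlap were found for 1 member, Inhbc, lower in every western diet liver, as held for 5.03% of all genes, and for no member with every western diet liver higher (7.01% of all genes). The median log2 difference, western diet minus chow, was −0.35 over the 8 members and −0.0091 over all genes tested. With DESeq2 and with limma-voom 5 members fell and none rose, the fifth being Fetub. In bulk tissue, fewer hepatocytes and less transcript per hepatocyte cannot be told apart.

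**Figure D1:**
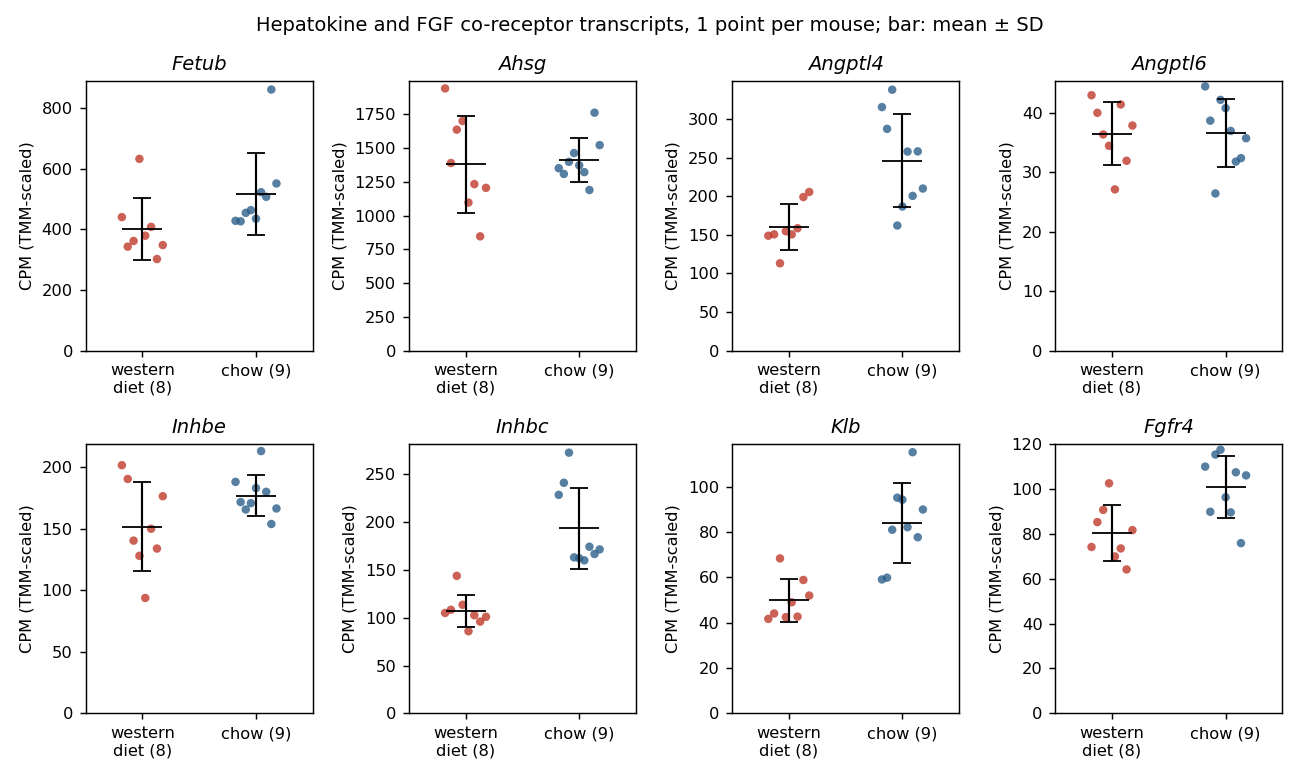
Each panel plots 1 transcript in CPM (counts per 1e+06 of the TMM-scaled total) for the 8 western diet and the 9 chow livers, with 1 point per mouse and the mean ± SD as black bars. The Inhbc points of the diets do not overlap (85.8 to 144 CPM on western diet, 159.8 to 272 CPM on chow). The points of Angptl6 lie over nearly the same range, and those of Ahsg spread wider on western diet, on either side of chow.

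The libraries held 3604212 to 9071908.5 counts, and 16120 to 17853 genes had a value above 0. The hepatocyte markers were all present, Alb with 3579 ± 811 CPM on western diet and 4670.2 ± 464 CPM on chow (SD, n = 8 and 9). Of 11 hepatocyte markers 2 fell, with a median log2 difference of −0.16 and a range of −0.39 to 0.067. The log2 differences of Fetub (−0.36), Fgfr4 (−0.33), Inhbe (−0.22), Ahsg (−0.030) and Angptl6 (−0.0080) lay within that range. Those of Inhbc (−0.85), Klb (−0.75) and Angptl4 (−0.62) lay below it. All 5 markers of lipid-associated macrophages rose (summed level 209 to 413 CPM on western diet, 41.9 to 66.9 CPM on chow), as did all 5 of bile duct cells and 5 of 7 of stellate cells. Of 6 Kupffer cell markers 4 rose and 1, Marco, fell by 2.94 in log2, and of 7 markers of sinusoidal endothelium 2 rose and 2 fell. Western diet replicate 5 and chow replicate 2 carried transcripts of pancreas: the 14 pancreatic genes summed to 5412 CPM and 17079.6 CPM there. The 7 further western diet libraries held 179 to 376 CPM of them, and the 8 further chow libraries 174 to 661 CPM.

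Fetuin-A (Ahsg), which carries calcium phosphate in plasma and inhibits the insulin receptor kinase, and fetuin-B (Fetub), an inhibitor of metalloproteinases linked to glucose intolerance in mice, belong to the cystatin superfamily. Their genes lie near each other on mouse chromosome 16 of mm10, Ahsg at 22892015 to 22899451 and Fetub at 22918382 to 22939768, with the family members Hrg, Kng2 and Kng1 next to them. Ahsg was at 846, 1310.3 and 1939.9 CPM on western diet (lowest, median and highest of 8), against 1189, 1371 and 1761 CPM on chow (of 9). The western diet livers spread wider than the chow livers, on either side of them. The log2 difference of Ahsg was −0.030 ± 0.13 (± SE, adjusted p = 0.868, edgeR), with a 95% interval of −0.30 to 0.24. Its sign changed with library size alone and without both libraries with pancreatic transcripts.

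The Ahsg count changed less with depth than that of most genes. It was 6844.5 to 10168 counts on western diet and 7242.5 to 10810 counts on chow, a 1.58-fold range over libraries whose totals differed 2.52-fold. Within diets the slope of log2 count on log2 library total was 0.36 for Ahsg, 0.71 for Fetub and 0.90 to 1.39 for the other 6 members; its median was 1.17 over all genes tested and 0.60 over the 68 genes whose average log2 CPM reached 10. The shallowest library, western diet replicate 1, held the most Ahsg (1939.9 CPM), and the deepest western diet library, replicate 7, the least (846 CPM). With the library total as a covariate, an alternative chosen after seeing the data, the log2 difference was −0.13 (adjusted p = 0.0943); the part of depth in the values of Ahsg was not tested further.

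Fetub was at 303, 371 and 633 CPM on western diet, against 427, 464 and 862 CPM on chow, and 6 of 8 western diet livers lay below every chow liver. Western diet replicate 4 and chow replicate 8 stood above their groups. The log2 difference was −0.36 ± 0.15 (± SE, 95% interval −0.68 to −0.048) and did not pass the adjustment (adjusted p = 0.0533, edgeR). Over 10 other settings its adjusted p ran from 0.0208 to 0.171, and 5 of them passed; leaving out western diet replicate 4 gave −0.49 (adjusted p = 0.00514), and it also passed without chow replicate 1, 2 or 5 (−0.39, −0.39 and −0.39 in log2; adjusted p = 0.04995, 0.0430 and 0.0490).

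Within a library, the Fetub count was 0.222 to 0.373 of the Ahsg count on western diet, with a median of 0.3099, against 0.317 to 0.4896 on chow, with a median of 0.327. The ratio was lower on western diet by a log2 difference of −0.30 (exact permutation test over 24310 labellings, two-sided, p = 0.0388, adjusted over 4 ratios 0.0388; n = 8 and 9), and 4 of 8 western diet livers lay below every chow liver. It rested on part of the mice: with medians in place of means the difference was −0.076 (exact permutation, adjusted p = 0.474), and it no longer passed without western diet replicate 1, 2, 3 or 8 or chow replicate 6, 7, 8 or 9 (−0.29 to −0.24, exact permutation, adjusted p = 0.0525 to 0.082). The ratio is free of the scaling between libraries, but not of the unequal slopes on depth given above.

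Of the other cystatin genes, histidine-rich glycoprotein Hrg, a plasma protein that binds heparin, was at 709 ± 133 against 705 ± 75.3 CPM (western diet, chow; adjusted p = 0.962, edgeR), and Kng1, the precursor of bradykinin, at 999 ± 217 against 1037 ± 113 CPM (adjusted p = 0.718). Of 5 tested genes of the list 2 rose, the intracellular cathepsin inhibitor Cstb (log2 difference 0.86 ± 0.082, adjusted p = 8.86e-08) and the secreted one Cst3 (0.20 ± 0.08014, adjusted p = 0.0435). Among all genes tested 24.8% were called as higher. The sign of Hrg changed in 4 and that of Kng1 in 1 of 10 other settings. The call of Cst3 was lost in 11 of 17 fits that left out 1 library and in 4 of 10 other settings.

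Angptl4, an inhibitor of lipoprotein lipase that fasting induces in liver and fat, was at 113, 153 and 205 CPM on western diet (lowest, median and highest), against 162, 258 and 338 CPM on chow. All 8 western diet livers lay below the chow median, 6 of them below every chow liver. The fall was −0.62 ± 0.14 in log2 (± SE, adjusted p = 0.00151, edgeR), so that western diet livers held 65.1% of the chow level (95% interval 52.9% to 80.1%). It passed in all 10 other settings and all 17 fits that left out 1 library. Angptl4 lies on chromosome 17, 33774900 to 33781575 (mm10).

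Angptl4 is a textbook target of the fatty acid receptor PPARA, and of 14 such targets 11 fell and none rose (median log2 difference −0.41, against −0.0091 over all genes tested). Cyp4a14, a fatty acid omega-hydroxylase, had 761 ± 270 CPM on western diet and 2064 ± 401 CPM on chow (adjusted p = 3.82e-06, edgeR). Ehhadh of peroxisomal oxidation fell by 1.15 in log2, Cyp4a10 by 0.89 and the mitochondrial carnitine carrier Slc25a20 by 0.61. In 6 of the 14 targets every western diet liver lay below every chow liver, as held for 5.03% of all genes. Over all genes tested 23.6% were called as lower. A part of PPARA in the fall of Angptl4 was not tested. The adipocyte markers, cells that also express Angptl4 and Klb, summed to 76.5 to 135 CPM on western diet and 67.02 to 139 CPM on chow, and 3 of 5 fell (Adipoq, Plin1 and Lep); their part in these falls was not tested.

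Angptl6, a growth factor of the same family that raises energy use in mice, was at 27.1, 37.1 and 42.9 CPM on western diet, against 26.4, 36.9 and 44.4 CPM on chow. The groups covered nearly the same range. The log2 difference was −0.0080 ± 0.10 (adjusted p = 0.957, edgeR), with a 95% interval of −0.22 to 0.20, and its sign changed with library size alone (0.11) and without both libraries with pancreatic transcripts (0.057). Angptl6, on chromosome 9 at 20873808 to 20879822, overlaps the gene Shfl, so reads of both could be mixed where the strand was not used.

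The Angptl4 count was 3.11 to 6.22 times that of Angptl6 on western diet (median 4.14) and 3.84 to 12.7 times on chow (median 6.96). The difference of the log2 ratio was −0.60 (exact permutation test, two-sided, p = 0.0120, adjusted p = 0.0239; n = 8 and 9), so that the members of this pair differed in their change. The difference stayed past the threshold in all 17 fits that left out 1 library. Slopes on depth were unequal here too (1.35 for Angptl4, 0.97 for Angptl6), and the part of depth in the ratio was not tested.

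**Figure D2:**
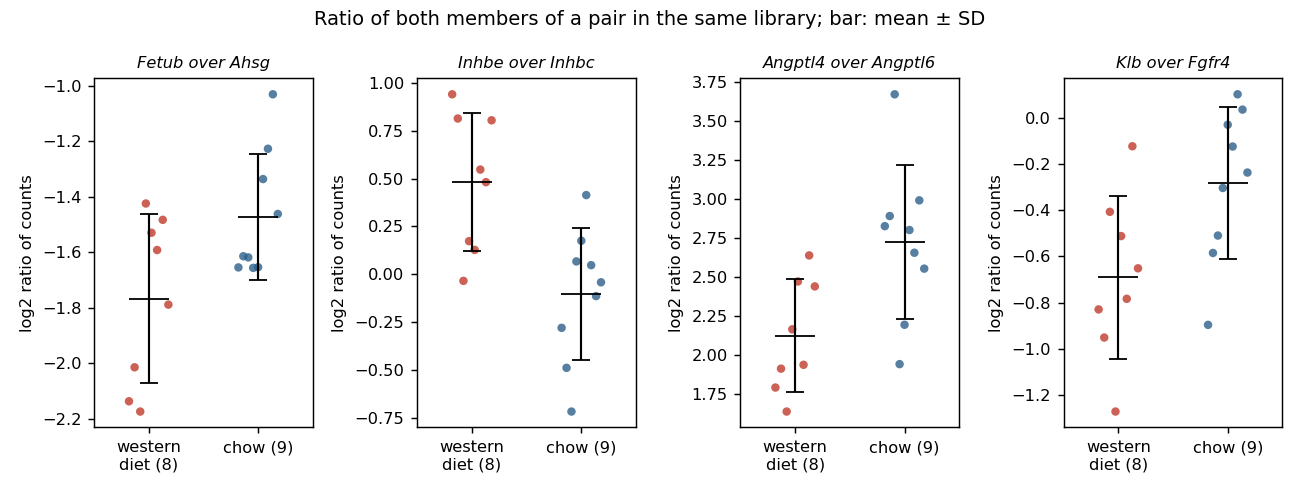
The log2 ratio of the counts of both members of a pair within each library, 1 point per mouse with mean ± SD as bars, for the 8 western diet and the 9 chow livers. The diets overlap in all 4 ratios; for Inhbe over Inhbc 5 of 8 western diet livers lie above every chow liver.

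Other genes of the family and of lipoprotein lipolysis moved in both directions. Lipoprotein lipase Lpl, the enzyme that Angptl4 inhibits, rose 3.097-fold (402 ± 58.6 CPM on western diet, 129.95 ± 17.8 CPM on chow; adjusted p = 2.92e-10, edgeR), and every western diet liver lay above every chow liver. Macrophages are one known source of Lpl, and their markers rose as given above; their part in it was not tested. Angptl2, a proinflammatory member of the family, rose 1.71-fold, and Apoc2, the activator of the lipase, 1.40-fold. Endothelial lipase Lipg was 2.22-fold lower (adjusted p = 6.19e-04).

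Angptl8, a member of the family that feeding induces, stood at 59.5 ± 32.6 against 41.3 ± 18.8 CPM (western diet, chow; adjusted p = 0.197, edgeR). Of 14 tested genes of this list 3 rose, 4 fell and 7 did not pass, with a median log2 difference of −0.15. Without western diet replicate 1, 7 fell. Among all genes tested 24.8% were called as higher and 23.6% as lower.

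Inhbe and Inhbc encode the beta subunits of activin E and activin C, members of the TGF-beta superfamily made largely by hepatocytes; activin E acts on fat, where it restrains lipolysis. They are neighbours on chromosome 10 of mm10, Inhbe at 127349402 to 127351848 and Inhbc at 127356322 to 127370548, with 4473 bp between them. Inhbc was at 85.8, 104 and 144 CPM on western diet (lowest, median and highest), against 159.8, 171 and 272 CPM on chow. Every western diet liver lay below every chow liver. The fall of −0.85 ± 0.12 in log2 (± SE, adjusted p = 1.07e-05, edgeR) was the largest among the members and left 55.3% of the chow level (95% interval 46.5% to 65.9%). It passed in all 10 other settings and all 17 fits that left out 1 library.

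Inhbe was at 93.7, 145 and 201 CPM on western diet, against 154, 171 and 213 CPM on chow. The western diet livers reached from below all chow livers, where 5 of 8 lay, to near the highest of them. The log2 difference was −0.22 ± 0.12 (95% interval −0.47 to 0.019) and did not pass (adjusted p = 0.1195, edgeR). It passed without western diet replicate 1, the shallowest library, which held the most Inhbe (−0.29, adjusted p = 0.0372), and in none of the 10 other settings.

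The count of Inhbe was 0.976 to 1.92 times that of Inhbc on western diet (median 1.43), against 0.608 to 1.33 times on chow (median 0.971). In log2 the ratio was higher on western diet by 0.59 (exact permutation test, two-sided, p = 0.00415, adjusted p = 0.0166; n = 8 and 9). Both neighbours thus differed in their change, and this held in all 17 fits that left out 1 library. The lowest chow ratios (0.823, 0.712 and 0.608) were those of replicates 1, 2 and 3, the chow livers with the least of the clock gene Dbp (described below). The other chow livers ran from 0.924 to 1.33. Leaving out 1 library does not remove these livers together, and the part of the clock in this ratio was not tested.

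Of the other activin genes 1 of 14 tested rose, 4 fell and 9 did not pass (median log2 difference −0.10). Over all genes tested 24.8% were called as higher and 23.6% as lower. The type II receptors Acvr2b and Acvr2a fell, Acvr2b to 13.8 ± 1.41 CPM on western diet, against 24.8 ± 6.18 CPM on chow (adjusted p = 2.55e-05, edgeR), and Acvr2a by 0.38 ± 0.087 in log2. The signal carriers Smad4 and Smad2 fell by 0.34 and 0.26 in log2, Smad2 not with library size alone (−0.13). The gene that rose was the antagonist Fstl3 (1.98 ± 0.719 CPM on western diet, 0.877 ± 0.638 CPM on chow, adjusted p = 0.00735, edgeR), named after its values were seen; between none and 2 genes rose when 1 library was left out, and none without both libraries with pancreatic transcripts.

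The subunits Inhba and Inhbb, found outside hepatocytes too, were at 26.3 ± 6.06 against 23.1 ± 4.91 CPM (western diet, chow) and at 11.2 ± 4.08 against 8.98 ± 3.33 CPM, and neither passed (adjusted p = 0.316 and 0.2402, edgeR). Follistatin Fst, a secreted antagonist of activins and itself a hepatokine, was at 9.30 ± 10.8 against 9.30 ± 4.82 CPM (adjusted p = 0.946), with 1 high library on western diet. Acvr1c, the type I receptor through which activin E acts on fat, was too low in liver to be tested (0.918 ± 0.431 CPM on western diet, 1.31 ± 0.459 CPM on chow).

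Klb was at 41.7, 46.5 and 68.3 CPM on western diet (lowest, median and highest), against 59.04, 82.1 and 115 CPM on chow. Of 8 western diet livers 7 lay below every chow liver, and western diet replicate 3 reached into the chow range. The fall was −0.75 ± 0.13 in log2 (± SE, adjusted p = 1.10e-04, edgeR), which left 59.6% of the chow level (95% interval 49.4% to 71.95%). It passed in all 10 other settings and all 17 fits that left out 1 library. Klb lies on chromosome 5, 65348411 to 65386957 (mm10).

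Fgfr4, on chromosome 13 at 55152818 to 55168759, was at 64.1, 77.9 and 102 CPM on western diet, against 75.8, 106 and 117 CPM on chow. All 8 western diet livers lay below the chow median, but the groups overlapped. The fall was −0.33 ± 0.096 in log2 (adjusted p = 0.00770, edgeR), leaving 79.5% of the chow level (95% interval 69.1% to 91.3%). Scaled by library size without TMM factors, which moved the median log2 difference of all genes to 0.12, it was −0.21 and did not pass (adjusted p = 0.0635).

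The Klb count was 0.415 to 0.918 of the Fgfr4 count on western diet (median 0.608), against 0.538 to 1.07 on chow (median 0.848). The co-receptor was thus lower relative to the receptor, by −0.41 in log2 (exact permutation test, two-sided, p = 0.0274, adjusted p = 0.0365; n = 8 and 9). With medians the adjusted p was 0.0598 (exact permutation). The difference no longer passed without western diet replicate 1, 2 or 4 or chow replicate 6, 7, 8 or 9 (−0.40 to −0.32, exact permutation, adjusted p = 0.0525 to 0.0674). Slopes on depth were 1.39 for Klb and 1.01 for Fgfr4, and the part of depth in this ratio was not tested.

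**Figure D3:**
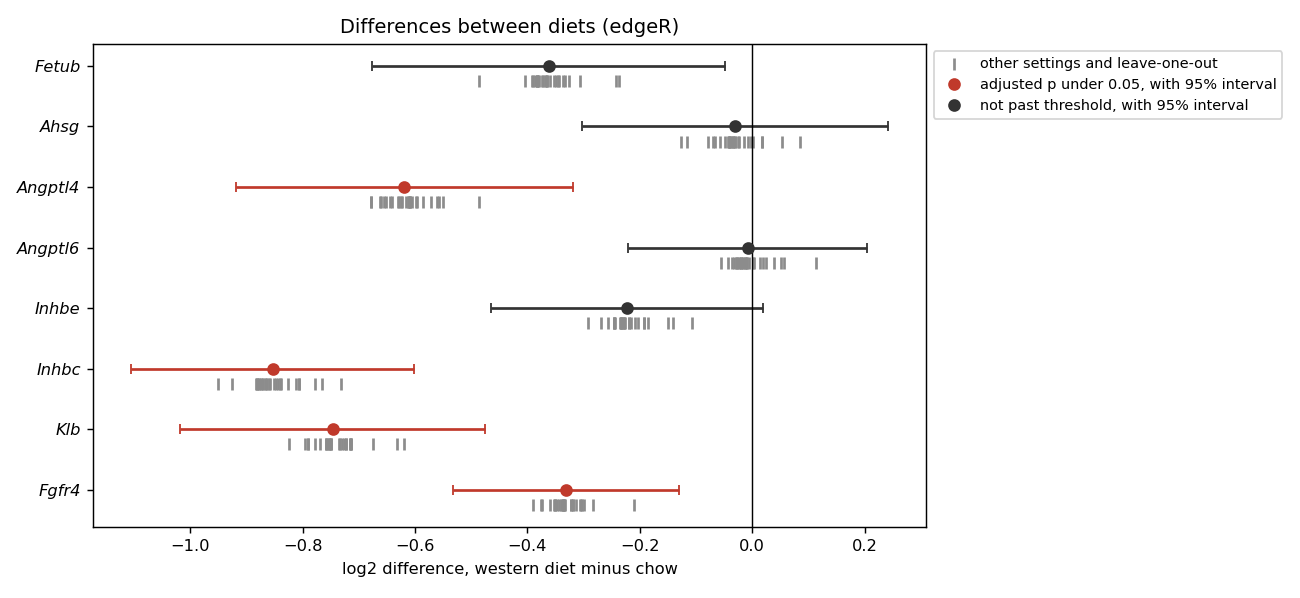
The log2 difference between western diet and chow for each of the 8 genes, as a point with its 95% interval (red where the adjusted p was under 0.05), above grey ticks for the 10 other settings and the 17 fits that left out 1 library. The ticks of Inhbc, Klb and Angptl4 stay far from 0, from −0.95 to −0.49, and those of Ahsg and Angptl6 lie on both sides of it.

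Of the FGF ligand genes given here, Fgf1 alone passed the test, and it is not one of the endocrine ligands named above. Fgf21, the stress and fasting hormone that signals through beta-Klotho, was at 21.4 ± 6.90 CPM on western diet and 25.1 ± 14.5 CPM on chow (log2 difference −0.25 ± 0.32, adjusted p = 0.547, edgeR). The gut hormone gene Fgf15 had 0 counts in all 17 libraries, which allows up to 0.331 to 0.832 CPM (3 counts, counting error only). Fgf1, a ligand of all FGF receptors, was 1.73-fold lower (126 ± 11.4 CPM on western diet, 218 ± 33.7 CPM on chow, adjusted p = 6.76e-07), with no overlap.

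Among the other receptors, Fgfr1 was at 24.3 ± 3.59 against 24.6 ± 7.75 CPM (western diet, chow; adjusted p = 0.924, edgeR), Fgfr2 fell by 0.27 ± 0.084 in log2 and Fgfr3 rose 1.35-fold. The call of Fgfr2 was lost with library size alone (log2 difference −0.14), and the sign of Fgfr1 changed in 4 of 10 other settings. The renal co-receptor Kl was not tested, with a mean of 0.154 CPM on western diet and 0.0516 CPM on chow. Genes that act below the receptor split. The exchange factor Sos1 fell by 0.63 in log2 with no overlap. The ERK phosphatase Dusp6 and the transcription factor Etv5, both induced by ERK signalling, rose 1.82-fold and 1.61-fold. Of 8 western diet livers 7 lay above every chow liver for Dusp6 and 1 for Etv5. In the Spry and Spred families of this list, Spry1 and Spred1 rose (0.48 and 0.47 in log2). Spry2, Spry4 and Spred2 did not pass (adjusted p = 0.077, 0.999 and 0.515, edgeR). Of 19 tested genes of this list 6 rose, 7 fell and 6 did not pass (median log2 difference −0.023). The shares over all genes tested were 24.8% called as higher and 23.6% as lower.

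Bile acid synthesis is the process that FGFR4 and beta-Klotho restrain. Cyp8b1, the enzyme that makes cholic acid, had 382 ± 98.2 CPM on western diet and 748 ± 101 CPM on chow (1.96-fold lower, adjusted p = 1.60e-05, edgeR), with no overlap. Cyp7b1 of the alternative pathway was 1.79-fold lower, and the nuclear receptors Nr5a2 and Nr1h4 1.47-fold and 1.27-fold lower; the call of Nr1h4 was lost with library size alone (log2 difference −0.21). Cyp7a1, the rate-limiting enzyme, was at 259.8 ± 81.3 against 279 ± 241 CPM (western diet, chow; adjusted p = 0.889, edgeR) and changed sign between settings. Of 7 genes 5 fell and none rose (median −0.34), where 23.6% of all genes tested were called as lower.

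**Figure D4:**
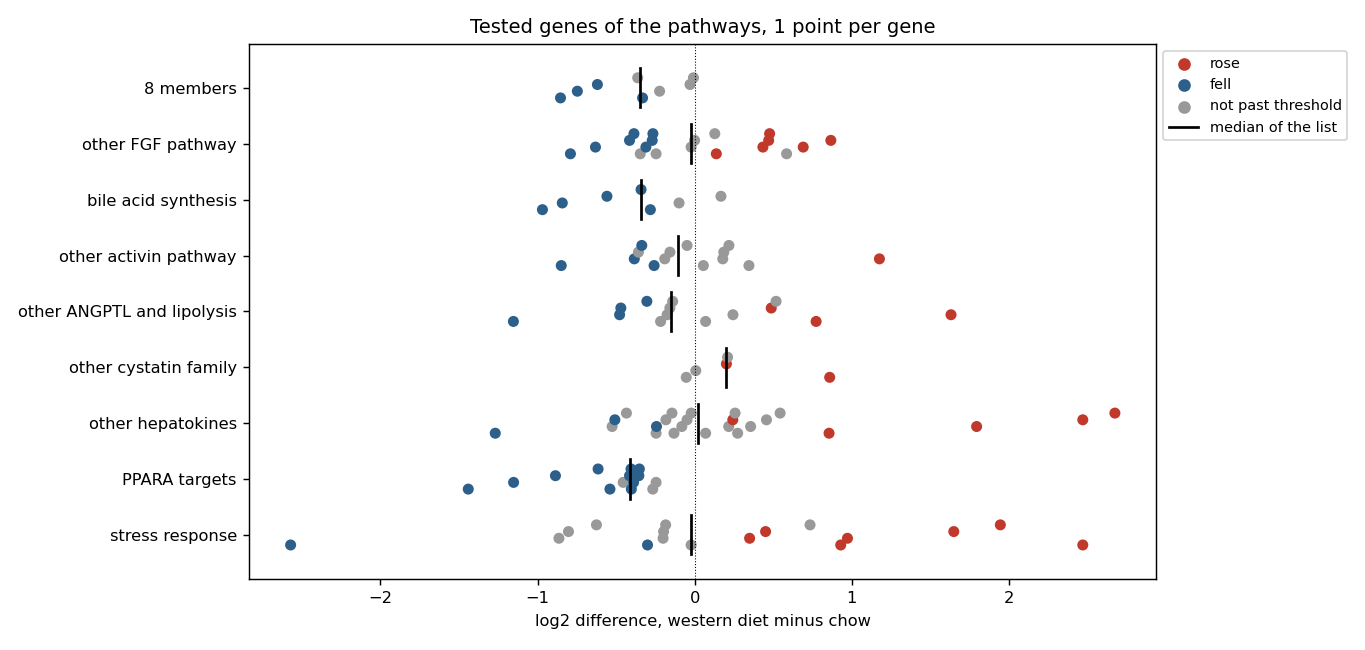
Log2 differences between western diet and chow of all tested genes in the 8 members and in 8 lists of related genes, 1 point per gene, coloured by the call at an adjusted p of 0.05, with the median of each list as a black line. The 8 members, the PPARA targets and the genes of bile acid synthesis hold falls and no rise, the cystatin genes rises and no fall, and the other 5 lists both.

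Among further hepatokines the stress hormone Gdf15 rose 5.54-fold (96.3 ± 46.0 CPM on western diet, 17.5 ± 9.28 CPM on chow; adjusted p = 1.57e-05, edgeR), the plasma carrier Orm2 6.38-fold and the interleukin 1 antagonist Il1rn 3.47-fold, each without overlap. Adropin, encoded by Enho and linked to glucose metabolism, was 2.41-fold lower (5.76 ± 2.62 against 13.8 ± 6.29 CPM). Of 24 genes 5 rose, 3 fell and 16 did not pass (median 0.024), where 24.8% of all genes tested were called as higher and 23.6% as lower. The rise of Orm2 was 1.80 in log2 without western diet replicate 4, in place of 2.67.

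Inhbe and Gdf15 are known to respond to the integrated stress response, a translational stress programme. Of 17 tested targets of it 7 rose, 2 fell and 8 did not pass (median −0.023). For all genes tested the shares were 24.8% called as higher and 23.6% as lower. The glutathione-degrading enzyme Chac1 rose 3.85-fold and the folate enzyme Mthfd2 3.13-fold (log2 difference 1.65, and 2.42 without chow replicate 2), whereas asparagine synthetase Asns was 5.94-fold lower (4.68 ± 2.26 against 28.3 ± 20.8 CPM, western diet and chow; adjusted p = 2.92e-04, edgeR).

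The level of clock genes differed between livers of the same diet. Dbp, a clock output gene that swings widely over the day, ran from 10.7 to 88.8 CPM on western diet and from 8.25 to 203 CPM on chow, and the labels give no time of death. The 3 chow livers with the least Dbp (8.25 to 13.01 CPM) held the most Inhbc (228 to 272 CPM, against 159.8 to 174 CPM in the other 6) and the most Angptl4 (287 to 338 CPM, against 162 to 258 CPM), and 2 of them the least Klb (59.04 and 59.8 CPM). Among western diet livers the 3 with the least Dbp (10.7 to 31.4 CPM) also held the most Inhbc (108 to 144 CPM, against 85.8 to 105 CPM in the other 5). Angptl4 and Klb did not follow the chow pattern there: western diet replicate 3, with 28.7 CPM of Dbp, held the least Angptl4 (113 CPM) and the most Klb (68.3 CPM), and Angptl4 was highest in replicates 7 and 8 (199 and 205 CPM), with 88.8 and 65.04 CPM of Dbp. With the first principal component of 16 clock genes as a covariate the log2 differences were −0.95 for Inhbc, −0.66 for Angptl4, −0.63 for Klb and −0.38 for Fgfr4, and all 4 passed (adjusted p = 6.69e-08, 7.29e-04, 1.32e-04 and 0.00378, edgeR).

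**Figure D5:**
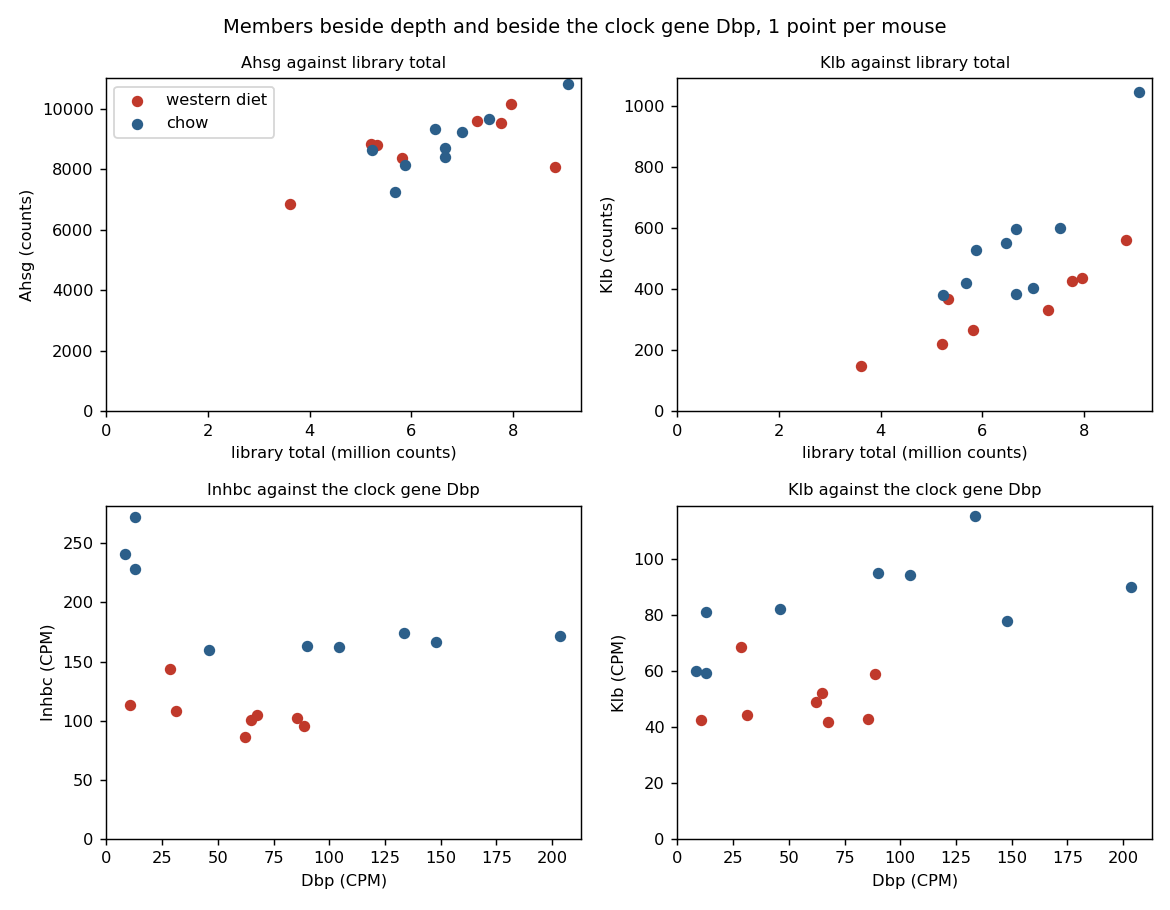
The upper panels plot the counts of Ahsg and Klb against the library total (axis in 1e+06 counts), the lower panels Inhbc and Klb in CPM against the clock gene Dbp in CPM, with 1 point per mouse (red western diet, blue chow). Ahsg counts stay between 6844.5 and 10810 over the whole range of totals, and the 3 chow livers with the least Dbp are the 3 highest in Inhbc.

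The genes whose levels went most closely with each member were found from the log2 CPM after subtracting the mean of its diet, over 17 libraries and the 10494 genes whose average log2 CPM reached 3; Pearson's r serves here as a measure of likeness only, since the libraries share depth, diet and clock. For Ahsg they were Gm30505 (0.98), Azgp1 and Plg (both 0.94); Gm30505 overlaps Ahsg on chromosome 16, so that reads of both may be mixed. For Fetub they included Snx22 (0.92) and the endoplasmic reticulum isomerase Ppib (0.91). Like Fetub, both were highest of their diet in western diet replicate 4 and chow replicate 8 (Snx22 138.6 and 141.4 CPM, Ppib 222.7 and 235.4 CPM). For Inhbc they were the clock-linked repressor Nfil3 (0.90), Ric8b (0.87) and Pnrc1 (0.85), and for Inhbe they included Aldh9a1 (0.88) and Mpst (0.83).

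For Klb the closest were the peptidase Dpp4 (0.90), March6 (0.89) and Zcchc11 (0.88), for Angptl4 Chordc1 (0.86), Gm15441 (0.82) and Zbtb16 (0.81), for Angptl6 Atg101 (0.89), Pigo and Fastk (both 0.86), and for Fgfr4, Lonrf1 (0.80), Tvp23b (0.77) and Zfp146 (0.76). Members of a pair went together to unequal degrees: the likeness was 0.62 for Fetub and Ahsg, 0.11 for Klb and Fgfr4, 0.091 for Inhbe and Inhbc and −0.24 for Angptl4 and Angptl6. The closest pair among members was Angptl6 with Inhbe (0.66), followed by Fetub with Ahsg.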

How the data were processed

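Per the labels' protocols, RNA of frozen liver was taken up in phenol/chloroform and cleaned on RNeasy columns; NEBNext Ultra RNA libraries were sequenced paired-end on a NovaSeq. The authors deposited unscaled expected counts, a file for each library with gene symbols as row names and values that move by 0.5. The submitters' processing notes name STAR 2.4.1c, HOMER, FastQC, MultiQC and mm10; for options, strand and duplicate reads, nothing is given in the sources used here. The treatment field of the labels gave the diet (the source name reads western diet for all 17 samples, against the chow treatment of 9 of them and the series' design text). Of 24940 genes 3 had no value and were left out.

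Values were rounded and tested with edgeR 4.0.16 (R 4.3.3; limma 3.58.1): filterByExpr, which left 13204 genes, TMM factors, glmQLFit and glmQLFTest with robust estimation on diet alone, two-sided, Benjamini-Hochberg adjusted over all genes at 0.05. Intervals are 95% from the fitted SE. CPM use TMM-scaled totals. Levels were not set per exon length, so a ratio of the counts of 2 genes is not a ratio of transcript numbers. Ratios of 2 counts, each plus 0.5, were tested by exact permutation of all 24310 labellings (Python 3.11.15, numpy 2.4.6), adjusted over 4 ratios. Positions come from RefSeq, GRCm38.p6, to which 24847 of 24937 symbols matched.

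The members and lists were chosen with earlier results of these data known. Named were all members, up to 4 genes per list with the largest difference past the threshold (average log2 CPM 1 or more), 16 fixed genes, and 3 genes most like each member, of which a few are not reported here; a few others were named after their values were seen. Library pairs of a diet differed beyond sampling noise (chi-square per degree of freedom 3.85 to 37.7), and each library is 1 mouse per the series' design text. The fits were also run on drawn counts with known changes in a small set of genes, as many raised as lowered. The outcome is not reported here. Far more genes were called in these data, so that run does not test the scaling between libraries. Alternatives were RLE factors, library size alone, DESeq2 1.42.0, limma-voom, other filters, doubled counts, covariates for the clock and (added after seeing the data) for depth, and left-out libraries.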

Additional observations from a re-analysis of the deposited data

Results flagged for a closer look

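A library stood apart from the others of its diet, by the gap to its nearest neighbour relative to the range, in 13 of 106 groups of values. The rule sets apart about 1 in 20 groups where values are normal and groups independent. Here the values were not logged and the groups share the same libraries, so no excess over chance can be read from this. Among members a library stood apart for Fetub, with 633 CPM in western diet replicate 4 (next 441 CPM) and 862 CPM in chow replicate 8 (next 552 CPM). For the ratio of Angptl4 to Angptl6 it was chow replicate 3, with 12.7 (next 7.95). Western diet replicate 4 also held 421 CPM of Orm2 (next 84.6 CPM) and 44.2 CPM of Chac1 (next 22.5 CPM). Western diet replicate 3 held 58.8 CPM of Acvr2a and 35.3 CPM of Fst (next 49.7 and 10.45 CPM). Single high values were those of Gdf15 in western diet replicate 6 (198 CPM), Angptl8 in western diet replicate 1 (128 CPM), Sos1 and Smad4 in chow replicate 3 (147 and 101 CPM) and Mthfd2 in chow replicate 2, which carried pancreatic transcripts (13.2 CPM). Slc25a20 was low in western diet replicate 5, the other library with pancreatic transcripts (159 CPM, next 206 CPM).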

How the results depend on the processing

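No paired analysis was possible because no label links a mouse of one diet to a mouse of the other. Over 10 other settings the log2 difference was −0.66 to −0.49 for Angptl4, −0.95 to −0.73 for Inhbc, −0.79 to −0.62 for Klb and −0.25 to −0.11 for Inhbe, with no call changed; Fgfr4 did not pass with library size alone (−0.21). Fetub passed with DESeq2 (−0.37), limma-voom (−0.35), a filter at 1 CPM in 8 libraries (−0.37), doubled counts (−0.37) and the library total as a covariate (−0.40). With library size alone the sign changed for Ahsg (0.084), Angptl6 (0.11), Fgfr1 (0.10), Cyp7a1 (0.039), Fst (0.059) and Kng1 (0.064), and 1615 of all genes fell in place of 3122 while 4485 rose in place of 3271 (73.5% rises in place of 51.2%). Without both libraries with pancreatic transcripts it changed for Ahsg (0.0016), Angptl6 (0.057) and Fst (0.15), with limma-voom for Fgfr1 (0.014) and Cyp7a1 (0.43), with the clock covariate for Fgfr1 (0.023) and Cyp7a1 (0.089), with the library total as a covariate for Fgfr1 (0.0021) and Hrg (−0.046), and for Hrg also with DESeq2 (−0.0046), no filter (−0.013) and doubled counts (−0.0026).

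Leaving out 1 library gave 4 to 5 members that fell, and log2 differences of −0.49 to −0.24 (Fetub), −0.12 to 0.053 (Ahsg), −0.056 to 0.052 (Angptl6), −0.29 to −0.14 (Inhbe), −0.095 to 0.068 (Fgfr1), −0.26 to 0.24 (Cyp7a1), −0.78 to 0.098 (Fst), −0.060 to 0.056 (Hrg) and −0.12 to 0.0010 (Kng1). The ratio Fetub over Ahsg was −0.34 to −0.24 then, and −0.076 with medians; Klb over Fgfr4 was −0.49 to −0.32, and −0.48 with medians.

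Counts in the lists moved by over 1.5 times as follows. With library size alone 4 FGF genes, 3 bile acid genes and 1 stress gene fell and 2 activin genes rose. Activin genes that rose were 2 with DESeq2, doubled counts, the clock covariate and the library total, 3 without a filter and 0 without both pancreatic libraries; cystatin genes that rose were 1 with DESeq2, no filter, doubled counts and the clock covariate. With the library total 7 hepatokines and 4 stress genes fell, and 1 stress gene without both pancreatic libraries. Leaving out 1 library gave 0 to 2 activin and 1 to 3 cystatin genes that rose, and 4 to 7 lipolysis genes, 3 to 5 hepatokines and 1 to 3 stress genes that fell. The causes were not tested. At these depths 3 counts are 0.331 to 0.832 CPM.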

Other observations

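Gm30505, which overlaps Ahsg, was at 79.6 ± 18.9 CPM on western diet and 81.6 ± 8.19 CPM on chow (SD, n = 8 and 9). Gm15441, among the genes most like Angptl4, was 3.53-fold lower on western diet (43.1 ± 9.23 CPM on western diet, 153 ± 70.1 CPM on chow; adjusted p = 1.64e-05, edgeR), with no overlap between diets.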
